A study of Mus musculus with 22 samples.

Results

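The 10 genes described here, Acly, Acaca, Fasn, Srebf1, Scd1, Scd2, Fads1, Fads2, Elovl5 and Elovl6, make, elongate and desaturate fatty acids in the cytosol and endoplasmic reticulum, or regulate that route. They were chosen by name, from what they are known to do, by a rule that uses no measured value, though earlier results of these data were known. All 10 were measured at both ages, out of 13750 genes listed at E18.5 and 15958 listed at 6 months (16674 at either age), and none stood at the lowest value of any library.

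Expression was profiled by RNA sequencing in mouse lung epithelial cells, to compare mutant alleles of the long noncoding RNA gene NANCI and of its neighbour Nkx2-1, alone and together. Cells were taken at E18.5 (EpCAM magnetic pulldown) from 4 groups of 3 libraries. WT was labelled NANCI-+/+, NANCI carried NANCI-CreERT2:RFP on both alleles (CreERT2:RFP/CreERT2:RFP), Nkx carried Nkx2.1-GFP/+, and Double carried NANCI-CreERT2:RFP/+ together with Nkx2.1-GFP/+. At 6 months (cells sorted as EpCAM+,CD45-,CD31-) there were 3 WT, 3 Nkx and 4 Double libraries with the same alleles, and no NANCI homozygotes. The labels name no treatment, and they give neither the strain, nor how the alleles were built, nor whether animals were pooled. Whether replicates came from separate animals is not said. Sex patterns, given below, differ within some groups, so the libraries of those groups did not all come from a single animal. The p-values hold only for the spread among these libraries, which may be technical in part.

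De novo synthesis starts in the cytosol, where ATP citrate lyase (Acly) splits citrate to acetyl-CoA, acetyl-CoA carboxylase 1 (Acaca) turns that into malonyl-CoA, and fatty acid synthase (Fasn) builds palmitate from both. In the endoplasmic reticulum ELOVL elongases lengthen the chain, stearoyl-CoA desaturases place its first double bond, and FADS1 and FADS2 add further double bonds to polyunsaturated chains. SREBP-1, the product of Srebf1, is a transcription factor that activates many of these genes. In lung, alveolar type 2 cells use the route to supply saturated and unsaturated acyl chains for surfactant phospholipids.

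Values are log2 expression levels as deposited, on a common distribution within each age. Whether they were divided by gene length was not given, so levels are compared for 1 gene between groups and not between genes or ages. The 1 exception is Scd1 minus Scd2 in the same library, which is compared between the groups of an age. Differences are log2 fold changes (limma) with their standard error (SE), and a gene is said to have risen or fallen where its Benjamini-Hochberg adjusted p over all genes was below 0.05. Read totals were not given, and libraries correlated at Pearson r of 0.91 to 0.985 (E18.5) and 0.859 to 0.977 (6 months) across genes, which are not independent replicates. Sex-linked genes showed 1 male and 2 female patterns in the E18.5 WT, Nkx and Double groups and 3 male in NANCI. At 6 months they showed 2 male and 1 female in WT, 1 male and 2 female in Nkx and 4 female in Double. The male call of E18.5 Nkx replicate 3 was mixed, with Y-linked genes at 12.22 on average and Xist at 11.34. In the other male-pattern libraries at E18.5 Xist was 7.21 to 8.48. Nkx2-1 itself lay between 14.48 and 14.95 in all 12 libraries at E18.5. At 6 months it ran from 14.17 to 14.55 in WT, 13.77 to 13.96 in Nkx and 13.75 to 14.43 in Double. Every 6-month Nkx library was thus below every WT library, while Double overlapped WT. What the GFP allele replaces was not given, so these levels do not check the genotype labels. The epithelial marker Epcam was present in every library, at 12.78 or above at E18.5 and 12.95 or above at 6 months.

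The genes sit on few chromosomes (GRCm38 coordinates, GENCODE annotation matched by the Ensembl gene ID in the deposited tables). Acaca (11:84129672-84401651, plus strand), Acly (11:100476353-100528000, minus), Fasn (11:120805846-120824547, minus) and Srebf1 (11:60199089-60222581, minus) lie on chromosome 11. Scd1 (19:44394455-44407879, minus), Scd2 (19:44293674-44306864, plus), Fads1 (19:10182888-10196877, plus) and Fads2 (19:10062765-10101746, minus) lie on chromosome 19. Elovl5 is at 9:77917364-77984519 (plus) and Elovl6 at 3:129532355-129638495 (plus). The 4 Scd genes are close paralogs in 1 cluster, so reads may be split or shared between Scd1 and Scd2. Exons of Srebf1 overlap those of Rai1 on the other strand and exons of Elovl6 overlap those of the antisense gene Gm35986, and the counting was not stated to use strand.

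Promoter windows were read for the 7 of 10 genes with an entry in the RefSeq table (GRCm38.p6). Each held up to 250 bases before the start site, read from the far end up to the first base of an annotated exon. They are shown for 2 enzymes that fell and 2 that rose in Double at 6 months. The motifs looked for were the E-box (CACGTG), the NF-Y box (CCAAT), the Sp1 box (GGGCGG), a part of the sterol regulatory element (CACCCCA) and the NKX2-1 box (CACTTGA), on both strands. Capitals mark every match. The windows are Fasn chr11:120824548-120824797 (minus strand), Acly chr11:100528001-100528250 (minus strand), Elovl5 chr9:77917115-77917363 (plus strand) and Elovl6 chr3:129532136-129532256 (plus strand).
Fasn: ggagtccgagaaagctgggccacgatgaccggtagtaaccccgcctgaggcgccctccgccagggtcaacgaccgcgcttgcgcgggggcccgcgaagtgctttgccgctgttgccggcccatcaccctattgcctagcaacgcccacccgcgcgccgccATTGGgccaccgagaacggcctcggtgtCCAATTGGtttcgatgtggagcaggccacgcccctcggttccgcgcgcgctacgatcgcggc
Acly: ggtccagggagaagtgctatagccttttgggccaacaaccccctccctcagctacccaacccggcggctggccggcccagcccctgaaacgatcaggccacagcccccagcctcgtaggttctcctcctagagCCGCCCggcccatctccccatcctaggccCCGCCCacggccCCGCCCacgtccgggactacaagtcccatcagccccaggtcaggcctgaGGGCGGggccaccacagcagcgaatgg
Elovl5: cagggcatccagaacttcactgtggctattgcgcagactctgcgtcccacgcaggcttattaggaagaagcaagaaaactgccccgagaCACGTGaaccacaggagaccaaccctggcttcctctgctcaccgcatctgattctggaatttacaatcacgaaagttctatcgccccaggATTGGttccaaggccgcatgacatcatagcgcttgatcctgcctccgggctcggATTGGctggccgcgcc
Elovl6: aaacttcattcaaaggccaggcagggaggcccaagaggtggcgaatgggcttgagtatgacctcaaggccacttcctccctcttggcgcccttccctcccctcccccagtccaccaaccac
The Fasn window held the NF-Y box 3 times, with 1 pair sharing bases as CCAATTGG. The Acly window held the Sp1 box 4 times, and the Elovl5 window held the NF-Y box 2 times and the E-box 1 time. No motif was found in the 121 bases of Elovl6, nor in the windows of Acaca (250 bases) and Fads2 (7 bases), which are not printed, and the Srebf1 windows held NF-Y and Sp1 boxes only. The Elovl6 window ends at 3:129532256, short of its start site at 3:129532386. The bases nearest the start sites of Elovl6 and Fads2 were thus not searched. The Acaca window precedes a start site at 11:84195438, inside the gene, and does not cover the bases before the gene's first position, 11:84129672. Of 32817 windows of 250 bases in the same table, 33.8% held the NF-Y box, 32.7% the Sp1 box, 6.0% the E-box, 6.7% the sterol regulatory element part and 2.7% the NKX2-1 box. None of the windows of the 7 genes held CACCCCA or CACTTGA. A match describes letters in a window and is not a bound site.

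In E18.5 NANCI homozygotes no fatty acid gene passed the test. Of the 10 genes, 0 rose and 0 fell, against 0% of all 13750 genes called. With no adjustment 0 of the 10 and 426 of all genes had p below 0.05. Differences from WT ran from −0.34 ± 0.32 for Srebf1 to 0.71 ± 0.42 for Elovl6, and every adjusted p was 0.978 or higher. No gene's 3 NANCI libraries lay outside the WT range on 1 side, 0 higher and 0 lower, while 6.27% of all genes did so (2.97% higher, 3.3% lower). Their median was 0.02, beside 0.01 over all genes. The NANCI group held the 3 male patterns and WT held 1.

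In E18.5 Double libraries the fatty acid genes split in 2 directions. The Δ9 desaturase Scd1 and the polyunsaturated chain desaturases Fads1 and Fads2 fell, as did Acaca, the enzyme that commits acetyl-CoA to synthesis. The elongases Elovl6 and Elovl5 rose. Fasn, Acly, Srebf1 and Scd2 had negative differences that did not pass. In all, 2 of 10 genes rose and 4 fell, against 14.6% of all genes called (7.13% higher, 7.47% lower). By non-overlap of the 3 Double with the 3 WT values, 2 were higher and 7 lower, against 27.2% of all genes (14% higher, 13.3% lower). Their median difference was −0.79, beside 0.02 for all genes.

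Scd1, which makes monounsaturated chains such as palmitoleate and oleate, had levels of 17.08, 17.35 and 17.24 in the WT libraries and 17.35, 17.35 and 17.50 in NANCI. It was 16.84, 15.68 and 15.76 in Nkx, and 16.27, 14.24 and 15.09 in Double. The WT and NANCI libraries therefore stood above every Nkx and Double library. The difference from WT was −2.02 ± 0.42 in Double (4.07-fold lower, adjusted p = 0.00636) and −1.13 ± 0.42 in Nkx (adjusted p = 0.128).

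Scd2, a second Δ9 desaturase of the same gene cluster, was 17.24, 17.24 and 17.35 in WT and 17.15, 16.84 and 17.15 in Double. Its Nkx values were 17.35, 17.50 and 17.15 and its NANCI values 17.50, 17.50 and 17.35, so all 4 groups lay within a narrow range. Scd2 ranked between 7 and 14 in these libraries, where steps near rank 10 averaged 0.25, so small differences can reflect single rank steps. Differences from WT were −0.23 ± 0.16 in Double (adjusted p = 0.415) and 0.05 ± 0.16 in Nkx (adjusted p = 0.884). The level of Scd1 minus that of Scd2 in the same library ran from −0.16 to 0.11 in WT and −0.15 to 0.15 in NANCI. It ran from −1.81 to −0.51 in Nkx and from −2.59 to −0.88 in Double, with no Nkx or Double library inside the WT or NANCI ranges. This pair was chosen after its values were seen, and the difference between the genes was not tested.

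Fads1, the Δ5 desaturase of polyunsaturated chains, read 12.28, 12.49 and 11.93 in the WT libraries and 12.14, 12.03 and 12.36 in those of NANCI. The Nkx libraries read 11.75, 11.09 and 10.96, and the Double libraries 11.40, 10.42 and 11.26. All Nkx and Double libraries were below all WT libraries, and the difference was −1.20 ± 0.26 in Double (adjusted p = 0.00909). Fads2, the Δ6 desaturase that acts before it, was 10.40, 10.32 and 9.70 in WT and 9.39, 8.94 and 9.61 in Double, a difference of −0.83 ± 0.21 (adjusted p = 0.0193). That call did not hold in 5 of 14 alternative fits, among them those without WT replicate 1 or 2 or Double replicate 2, with adjusted p from 0.00266 to 0.101. Its Nkx libraries were 9.67, 9.53 and 9.42, all below the lowest WT library, with a difference of −0.60 ± 0.21 that did not pass (adjusted p = 0.108).

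Acaca, which makes the malonyl-CoA used for each added carbon pair, was 12.99, 12.98 and 13.05 in WT and 12.42, 11.55 and 12.01 in Double. Its difference was −1.01 ± 0.23 in Double (adjusted p = 0.0105) and −0.78 ± 0.23 in Nkx (adjusted p = 0.0568), where the libraries were 12.75, 11.92 and 11.99. No Nkx or Double library reached a WT library. The other synthesis genes did not pass in Double against WT: Fasn was −0.74 ± 0.27 (adjusted p = 0.0848), Acly −0.32 ± 0.14 (adjusted p = 0.165) and Srebf1 −0.997 ± 0.32 (adjusted p = 0.0553). WT replicate 3 had the lowest WT value of all 3 (14.42 for Fasn, 13.46 for Acly, 11.19 for Srebf1). Without it Fasn, Acly and Srebf1 passed too and the count called went from 6 to 9 of 10.

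Elovl6, which lengthens palmitate to stearate, had levels of 5.15, 4.29 and 5.48 in WT and 6.36, 7.52 and 7.41 in Double. It was 6.18, 6.03 and 6.54 in Nkx and 6.28, 5.33 and 5.44 in NANCI, so Nkx and Double libraries were all above the WT libraries while NANCI libraries overlapped them. The difference was 2.12 ± 0.42 in Double (4.36-fold higher, adjusted p = 0.00557) and 1.28 ± 0.42 in Nkx (adjusted p = 0.0929). Elovl5, which lengthens polyunsaturated chains, was 13.94, 13.80 and 14.02 in WT and 14.39, 14.17 and 14.47 in Double. Its difference was 0.43 ± 0.13 (adjusted p = 0.0422) and 0.44 ± 0.13 in Nkx (adjusted p = 0.0565). Centring the libraries on 10 reference genes ended the calls for Acaca (−1.40, adjusted p = 0.0782), Elovl5 (0.04, adjusted p = 0.95) and Elovl6 (1.74, adjusted p = 0.0809), with a shift of −0.38 in the median of all genes. Elovl5 stood 0.41 above that median, and Srebf1 passed under the same centring (−1.38, adjusted p = 0.0102). The Elovl5 call also failed in fits without WT replicate 1 or 2 or Double replicate 1 or 3, and did not hold in 7 of 14 in all.

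**Figure D1:**
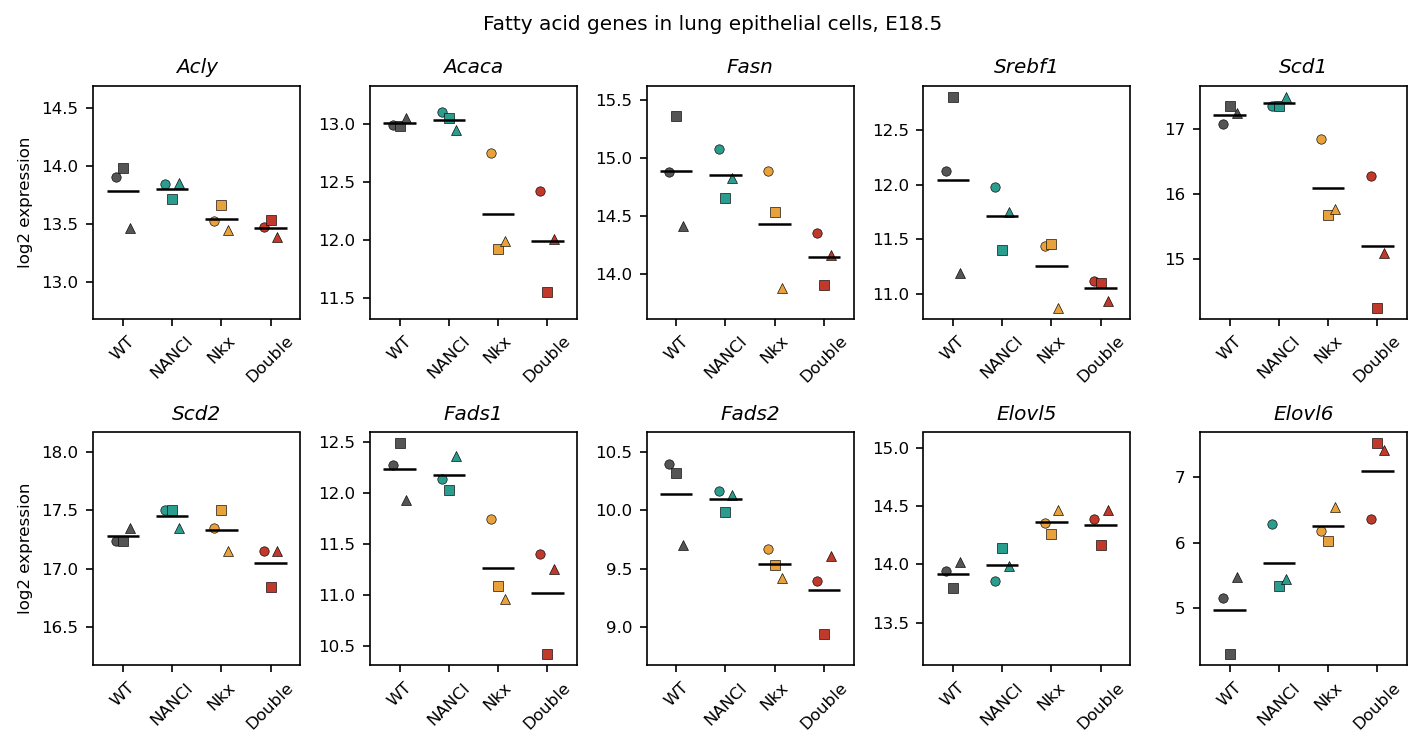
Log2 expression level (vertical axis) of each of the 10 genes in each of the 12 E18.5 libraries, with group means as bars. Scd1, Fads1, Fads2 and Acaca are lower and Elovl6 and Elovl5 higher in Double than in WT, with Scd2 at 16.84 or above in all libraries.

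With the Nkx2-1 allele alone at E18.5, Fads1 fell by 0.96 ± 0.26 (adjusted p = 0.044) and no other of the 10 genes passed. The count was 0 higher and 1 lower, against 7.32% of all genes called (3.67% higher, 3.65% lower). By non-overlap with WT, 2 genes were higher (Elovl5 and Elovl6) and 4 lower (Acaca, Scd1, Fads1 and Fads2), against 22.2% of all genes (11.7% higher, 10.4% lower). The median difference was −0.53, beside 0.02 for all genes. The Fads1 call did not hold in 9 of 14 alternative fits, among them each fit without WT replicate 1 or 2 or Nkx replicate 2 or 3, and adjusted p ran from 0.0204 to 0.269. Without WT replicate 3 the count called was 6 of 10.

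Double and Nkx libraries did not differ past the test for any of the 10 genes at E18.5. Differences ran from −0.89 for Scd1 to 0.85 for Elovl6, each with an adjusted p of 0.9998, against 0.00727% of all genes called (limma, 1 gene). No gene's Double and Nkx libraries were free of overlap, beside 8.6% of all genes (4.7% higher, 3.91% lower). Same-numbered Nkx and Double libraries deviated together. With the replicate number as a block and these groups alone, 0 of the 10 genes passed (Scd1 −0.89, adjusted p = 0.157, and Elovl6 0.85, adjusted p = 0.407), and the count over all genes went from 1 to 9. The Double and Nkx comparisons with WT share the same WT libraries.

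At 6 months nearly the whole route differed in Double. Acaca, Fasn and Acly, which carry citrate to palmitate, fell together with Srebf1, Scd2, Fads1 and Fads2, and Elovl5 and Elovl6 rose. Scd1 was the 1 gene of the 10 that did not pass. In all, 2 of 10 genes rose and 7 fell, against 36.3% of all genes called (18.4% higher, 17.9% lower). By non-overlap of 4 Double with 3 WT libraries, 2 genes were higher and 6 lower, against 40.1% of all genes (21.1% higher, 18.9% lower). The median difference was −0.98, beside 0.06 for all genes.

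Acaca read 13.28, 13.55 and 13.01 in the WT libraries, 12.41, 12.46 and 12.26 in those of Nkx and 10.81, 11.62, 11.38 and 11.48 in those of Double. The 3 groups did not overlap, with WT highest and Double lowest. The difference from WT was −1.95 ± 0.18 in Double (3.88-fold lower, adjusted p = 2.18e-05) and −0.90 ± 0.20 in Nkx (adjusted p = 0.0398).

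Fasn read 17.07, 17.36 and 17.27 in the WT libraries, 16.98, 16.61 and 16.57 in those of Nkx and 15.30, 16.35, 16.12 and 16.16 in those of Double. Acly read 14.64, 15.32 and 14.84 in the WT libraries, 14.25, 14.04 and 14.16 in those of Nkx and 13.38, 13.88, 13.90 and 13.95 in those of Double. For each the 3 groups stood in the order WT, Nkx, Double without overlap, and Acly stood apart from the rest of Double in replicate 1. Double differed from WT by −1.25 ± 0.26 for Fasn (adjusted p = 0.00325) and −1.16 ± 0.18 for Acly (adjusted p = 0.000565). Neither passed in Nkx, at −0.51 ± 0.28 (adjusted p = 0.308) and −0.79 ± 0.20 (adjusted p = 0.0583).

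Srebf1, the regulator, read 13.86, 14.15 and 13.76 in the WT libraries, 13.34, 13.30 and 13.37 in those of Nkx and 12.85, 13.25, 12.89 and 12.65 in those of Double. Here too the 3 groups were ordered without overlap. It fell in Double by 1.01 ± 0.15 (adjusted p = 0.000316), and stood at −0.58 ± 0.16 in Nkx (adjusted p = 0.0733).

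**Figure D2:**
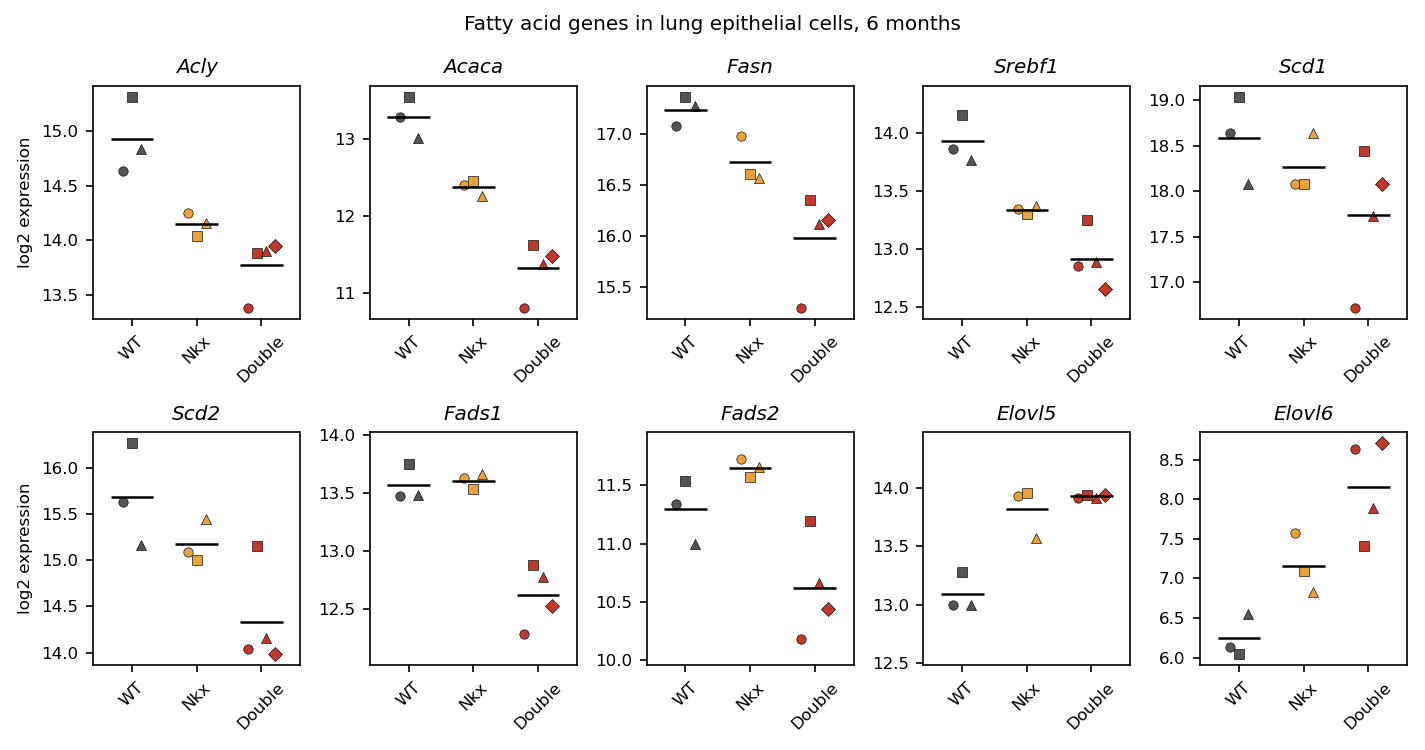
Log2 expression level (vertical axis) of each of the 10 genes in each of the 10 libraries at 6 months, with group means as bars. Acaca, Fasn, Acly and Srebf1 step down from WT to Nkx to Double, Fads1 and Fads2 are low in Double and not in Nkx, and Elovl5 and Elovl6 are higher in Nkx and Double than in WT.

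The polyunsaturated chain desaturases had another pattern. Fads1 was 13.47, 13.75 and 13.48 in WT and 13.63, 13.53 and 13.66 in Nkx, and 12.29, 12.88, 12.78 and 12.53 in Double. WT and Nkx libraries overlapped (0.04 ± 0.15, adjusted p = 0.901), and every Double library was lower than both groups, at −0.94 ± 0.14 against WT (adjusted p = 0.000464). Fads2 read 11.34, 11.54 and 11.00 in the WT libraries, 11.73, 11.57 and 11.66 in those of Nkx and 10.18, 11.19, 10.66 and 10.44 in those of Double. Its Nkx libraries were all above its WT libraries, by 0.36 ± 0.22 (adjusted p = 0.369), and Double lay at −0.68 ± 0.21 against WT (adjusted p = 0.0241) with Double replicate 2 inside the WT range. The Fads2 call in Double did not hold in 6 of 15 alternative fits. Among them were those without WT replicate 1 or 2 or Double replicate 1 or 4, and the fit with the sex pattern as a covariate.

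Scd1 read 18.64, 19.04 and 18.08 in the WT libraries, 18.08, 18.08 and 18.64 in those of Nkx and 16.72, 18.44, 17.73 and 18.08 in those of Double. The groups overlapped and the differences were −0.85 ± 0.44 in Double (adjusted p = 0.155) and −0.32 ± 0.47 in Nkx (adjusted p = 0.725). Scd1 ranked between 5 and 25 in these libraries, where the common distribution has steps of 0.32 on average near rank 10, so repeated values such as 18.08 mark the same rank. Scd2 read 15.63, 16.27 and 15.17 in the WT libraries, 15.09, 15.00 and 15.45 in those of Nkx and 14.04, 15.15, 14.16 and 13.98 in those of Double. It fell in Double, by 1.36 ± 0.31 (adjusted p = 0.0053), with every Double library below every WT library and replicate 2 apart from the other Double libraries. With the sex pattern as a covariate that call was lost (−0.97, adjusted p = 0.0674), as was that of Fads2, and the count called went from 9 to 7 of 10. Double held 4 female patterns, and WT 2 male and 1 female.

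**Figure D3:**
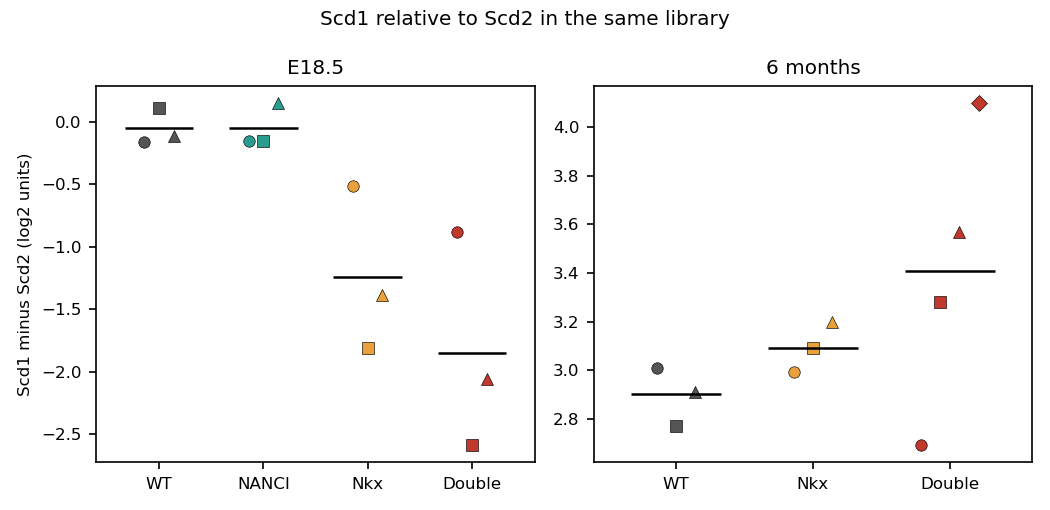
Log2 level of Scd1 minus log2 level of Scd2 in each library (vertical axis), by group and age. The E18.5 Nkx and Double libraries lie below the WT and NANCI libraries, while at 6 months WT (2.77 to 3.01), Nkx (2.99 to 3.20) and Double (2.69 to 4.10) overlap.

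Both elongases were higher in the mutants at 6 months. Elovl5 read 13.00, 13.28 and 13.00 in the WT libraries, 13.93, 13.96 and 13.57 in those of Nkx and 13.92, 13.94, 13.92 and 13.94 in those of Double. It rose by 0.73 ± 0.13 in Nkx (adjusted p = 0.0206) and by 0.84 ± 0.12 in Double (adjusted p = 0.000369), and the Nkx and Double libraries overlapped. Elovl6 read 6.14, 6.04 and 6.55 in the WT libraries, 7.57, 7.09 and 6.83 in those of Nkx and 8.63, 7.41, 7.89 and 8.71 in those of Double. All mutant libraries were above all WT libraries, at 1.92 ± 0.35 in Double (3.77-fold higher, adjusted p = 0.00137) and 0.92 ± 0.37 in Nkx (adjusted p = 0.184).

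For the Nkx2-1 allele alone at 6 months the count was 1 higher (Elovl5) and 1 lower (Acaca), against 2.63% of all genes called (1.52% higher, 1.11% lower). Non-overlap with WT gave 3 higher and 4 lower, against 30.5% of all genes (16.1% higher, 14.4% lower), and the median difference was −0.42 beside 0.01 for all genes. The Acaca call did not hold in 9 of 14 alternative fits, among them those without WT replicate 1 or 2 or any 1 Nkx library. The Elovl5 call did not hold in 6, among them those without WT replicate 1 or 3 or Nkx replicate 1 or 2. It was also lost on centring on reference genes (0.52, adjusted p = 0.145). Under that centring Acaca kept its call (−1.11, adjusted p = 0.0416) and Srebf1 passed (−0.79, adjusted p = 0.0481).

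Between Double and Nkx at 6 months, Acaca (−1.05 ± 0.18, adjusted p = 0.00236), Fads1 (−0.99 ± 0.14, adjusted p = 0.00087) and Fads2 (−1.03 ± 0.21, adjusted p = 0.0047) were lower in Double. None was higher, so the count was 0 higher and 3 lower, against 21.7% of all genes called (10.2% higher, 11.5% lower). These 3 calls held in all 15 alternative fits. Non-overlap gave 0 higher and 6 lower, against 31.8% of all genes (16.1% higher, 15.7% lower). Others that did not pass were Elovl6 at 0.998 ± 0.35 (adjusted p = 0.061), Srebf1 at −0.43 ± 0.15 (adjusted p = 0.0563), Fasn at −0.74 ± 0.26 (adjusted p = 0.0649) and Scd2 at −0.84 ± 0.31 (adjusted p = 0.073). Without Double replicate 2 these 4 also passed, for 7 of 10. Elovl5 was at 0.11 ± 0.12 (adjusted p = 0.573), Acly at −0.37 ± 0.18 (adjusted p = 0.173) and Scd1 at −0.53 ± 0.44 (adjusted p = 0.43).

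**Figure D4:**
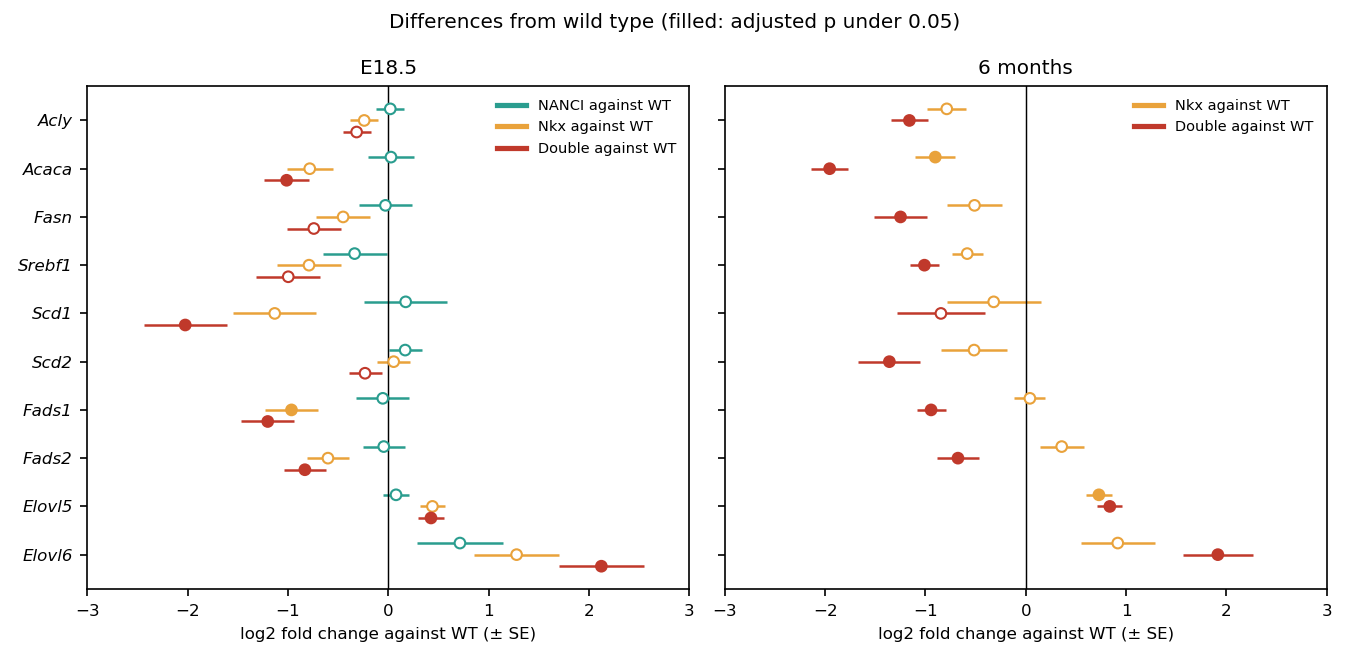
Log2 fold change against WT (horizontal axis, ± SE) of the 10 genes in each genotype, at E18.5 and at 6 months, with filled points for adjusted p below 0.05. Elovl6 and Elovl5 lie to the right of 0 in Nkx and Double at both ages, and Acaca lies to the left.

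Set side by side across ages, the Double against WT differences had the same sign for 10 of 10 genes. Acaca, Fads1, Fads2, Elovl5 and Elovl6 passed at both ages, each in the same direction, out of 6 that passed at E18.5 and 9 at 6 months. Of these 5, Fads1 alone kept its call in every alternative fit at both ages: at E18.5 Acaca and Elovl6 lost theirs on centring, Elovl5 in 7 of 14 fits and Fads2 in 5 of 14, and at 6 months Fads2 in 6 of 15. For Nkx against WT, 7 of 10 had the same sign and 0 passed at both ages. The shares of all genes with the same sign, or passing at both ages, were not counted. The agreement is thus not shown to be particular to these genes. The ages were normalized separately and their difference was not tested.

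The wider lists around the route gave the following counts in Double against WT. Of all genes, 14.6% were called at E18.5 (7.13% higher, 7.47% lower) and 36.3% at 6 months (18.4% higher, 17.9% lower). Lists with shares near these do not stand apart from all genes. For acetyl-CoA and NADPH supply, 1 rose and 2 fell of 11 measured at E18.5, and 4 rose and 3 fell of 12 at 6 months. Mid1ip1, which promotes acetyl-CoA carboxylase activity, fell, at −1.26 ± 0.24 at E18.5 (adjusted p = 0.00382) and −2.25 ± 0.21 at 6 months (adjusted p = 1.95e-05). Thrsp, its paralog, fell at 6 months (−1.51 ± 0.38, adjusted p = 0.00926), as did the pentose phosphate enzyme Tkt (−1.01 ± 0.11, adjusted p = 5.33e-05), while the NADPH-producing isocitrate dehydrogenase Idh1 rose by 0.90 ± 0.10 (adjusted p = 5.04e-05). Acss2, which makes acetyl-CoA from acetate, fell at E18.5 (−0.94 ± 0.27, adjusted p = 0.0345). This list thus moved in both directions at 6 months, with a median difference of 0.04.

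Of the other elongation and desaturation genes, 0 rose and 3 fell of 13 at E18.5, and 2 rose and 3 fell of 14 at 6 months. Elovl2 fell at E18.5 (−2.38 ± 0.39, adjusted p = 0.00173), and Elovl1, which makes saturated very long chains, fell, at −1.03 ± 0.22 at E18.5 (adjusted p = 0.00731) and −2.08 ± 0.30 at 6 months (adjusted p = 0.000322). So elongases of the same enzyme family stood on opposite sides of WT in Double. Hacd3, a dehydratase of the elongation cycle, fell at both ages, at −0.63 ± 0.11 (adjusted p = 0.00238) and −0.34 ± 0.11 (adjusted p = 0.0333).

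Of 18 regulators, 0 rose and 2 fell at E18.5, and 1 rose and 6 fell at 6 months. Insig1, which retains the SREBP precursor in the endoplasmic reticulum, fell at both ages, at −0.80 ± 0.22 (adjusted p = 0.0262) and −1.56 ± 0.36 (adjusted p = 0.00606). Cebpa, a transcription factor of the maturing lung epithelium, fell at E18.5 (−1.02 ± 0.17, adjusted p = 0.00195). At 6 months the nuclear receptor gene Ppara fell by 1.55 ± 0.23 (adjusted p = 0.000392) and Pparg rose by 1.52 ± 0.29 (adjusted p = 0.0019), with a list median of −0.31.

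Among acyl-CoA synthetases and carriers, 1 rose and 1 fell of 14 at E18.5, and 3 rose and 4 fell of 15 at 6 months. Acsl1, a long-chain acyl-CoA synthetase, rose by 0.73 ± 0.15 (adjusted p = 0.00622) and by 1.02 ± 0.18 (adjusted p = 0.00127), and lipoprotein lipase (Lpl) fell, at −0.80 ± 0.19 (adjusted p = 0.0133) and −1.35 ± 0.32 (adjusted p = 0.00648). Glycerolipid and surfactant lipid synthesis gave 0 higher and 6 lower of 26 at E18.5, and 5 higher and 10 lower at 6 months. Lpcat1, which makes the dipalmitoyl phosphatidylcholine of surfactant, fell, at −1.18 ± 0.26 (adjusted p = 0.00977) and −2.35 ± 0.31 (adjusted p = 0.000169), and the CDP-diacylglycerol synthase Cds1 fell at 6 months (−1.45 ± 0.14, adjusted p = 2.55e-05).

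Mitochondrial fatty acid synthesis, a separate route, gave 0 calls of 9 at E18.5, and 4 rose and 0 fell at 6 months, with a median of 0.42. Fatty acid oxidation, the opposite route, gave 0 calls of 20 at E18.5 and 3 higher and 3 lower at 6 months, with a median of 0.01. In NANCI against WT and in Double against Nkx at E18.5 no gene of these 7 lists passed, against 0% and 0.00727% of all genes called. The genes that rose at 6 months included Mecr, the last reductase of the mitochondrial route (0.52 ± 0.13, adjusted p = 0.00922), and Cpt2, which releases acyl-CoA inside mitochondria (0.52 ± 0.13, adjusted p = 0.00826).

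With the Nkx2-1 allele alone fewer genes of the wider lists passed, as did fewer of all genes (7.32% called at E18.5 and 2.63% at 6 months). At E18.5 Mid1ip1 fell by 1.07 ± 0.24 (adjusted p = 0.0166), as the 1 call among 11 supply genes. Elovl2 (−2.39 ± 0.39, adjusted p = 0.00298), Elovl1 (−0.93 ± 0.22, adjusted p = 0.0211) and Hacd3 (−0.42 ± 0.11, adjusted p = 0.0354) fell among 13 other elongation and desaturation genes, with none higher. Cebpa fell by 0.75 ± 0.17 (adjusted p = 0.0182), the 1 call among 18 regulators, and the lipid droplet coat gene Plin2 fell by 0.87 ± 0.19 (adjusted p = 0.0155), 1 of 2 that fell among 26 glycerolipid genes. At 6 months Scap, the escort of SREBP out of the endoplasmic reticulum, fell by 0.67 ± 0.11 (adjusted p = 0.0134), the 1 call among 18 regulators. Glycerolipid genes then gave 1 higher and 2 lower, with Lpcat2 at 1.40 ± 0.24 (adjusted p = 0.0192) and Cds2 at −0.62 ± 0.11 (adjusted p = 0.02). The supply list and the elongation list each gave 1 higher and 0 lower, Idh1 (0.50 ± 0.10, adjusted p = 0.032) and Hacd4 (1.47 ± 0.30, adjusted p = 0.032).

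Between Double and Nkx at 6 months 21.7% of all genes were called (10.2% higher, 11.5% lower). The supply list gave 3 higher and 3 lower of 12, with Thrsp at −1.93 ± 0.38 (adjusted p = 0.00451) and Mid1ip1 at −1.35 ± 0.21 (adjusted p = 0.00119). Of 14 other elongation and desaturation genes 0 rose and 2 fell, Elovl1 (−1.32 ± 0.30, adjusted p = 0.00932) and Tecr, the last reductase of the elongation cycle (−0.57 ± 0.11, adjusted p = 0.0033). Regulators gave 1 higher, Pparg (1.03 ± 0.29, adjusted p = 0.0259), and 1 lower, Insig1 (−1.35 ± 0.36, adjusted p = 0.021). Glycerolipid genes gave 4 higher and 9 lower of 26, with Lpcat1 at −1.56 ± 0.31 (adjusted p = 0.00435) and Gpam, which starts glycerolipid synthesis, at 0.84 ± 0.15 (adjusted p = 0.00233). The acyl-CoA synthetase and carrier list gave 0 higher and 3 lower of 15, among them the uptake receptor Cd36 (−1.32 ± 0.16, adjusted p = 0.000319). Fatty acid oxidation gave 0 higher and 3 lower of 20, and mitochondrial fatty acid synthesis 1 higher and 0 lower of 9.

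**Figure D5:**
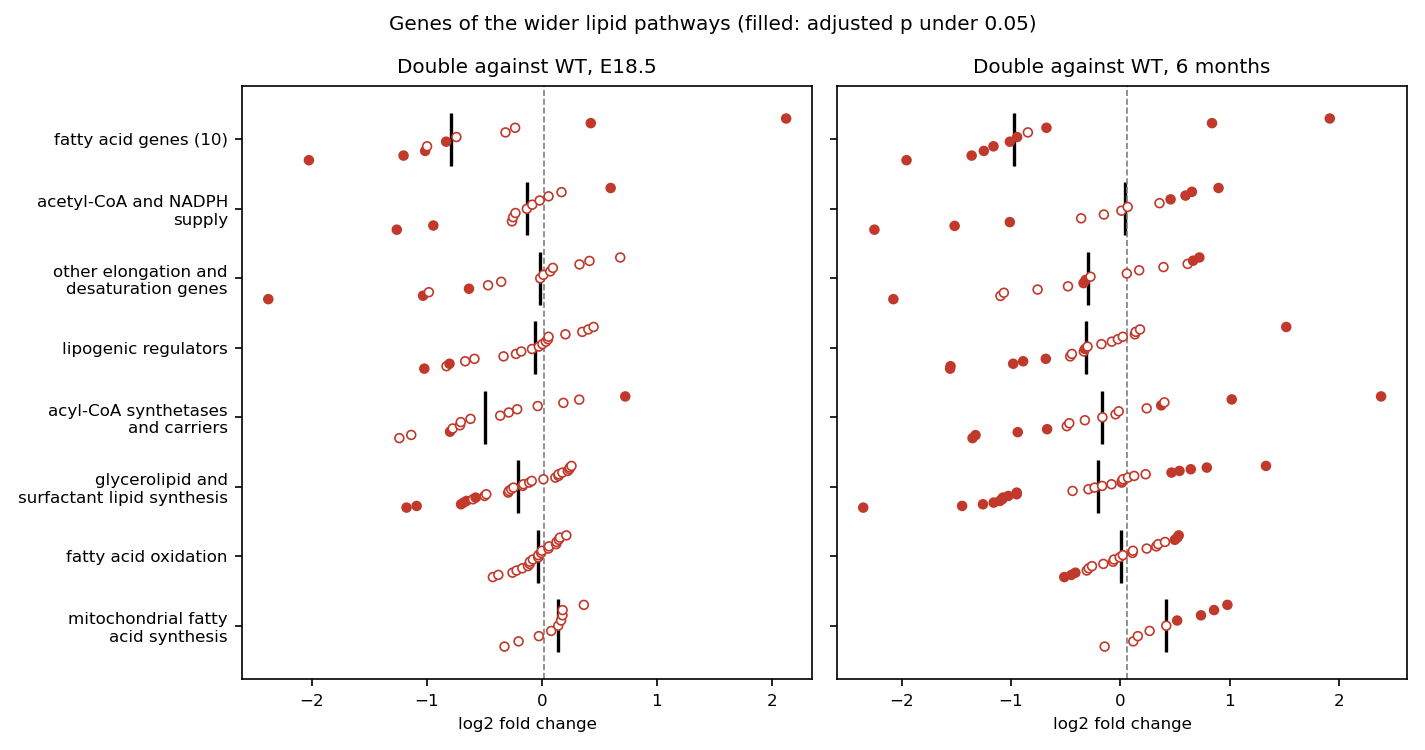
Log2 fold change of each measured gene of the 10-gene set and the 7 wider lists in Double against WT, with 1 panel per age and list medians as bars. The 10-gene set has its median at −0.79 at E18.5 and −0.98 at 6 months, and fatty acid oxidation at −0.03 and 0.01.

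Marker lists moved with these differences. The summed level of a list is the log2 of its markers' levels added on the linear scale, so the highest markers dominate it. Against WT, 7.32% of all genes were called in Nkx and 14.6% in Double at E18.5, and 2.63% and 36.3% at 6 months. Alveolar type 2 markers (11 of 11 measured, none at the lowest value) gave a summed level of 20.36 to 20.71 in E18.5 WT, 19.47 to 19.99 in Nkx and 18.89 to 19.61 in Double. Of these markers 0 rose and 3 fell in Nkx, and 0 rose and 10 fell in Double. At 6 months the sums were 22.36 to 22.53 in WT, 22.22 to 22.25 in Nkx and 20.56 to 22.14 in Double, with 0 rising and 8 falling in Double. None passed in 6-month Nkx, where the median level of the list (17.36 to 17.66) lay within the WT range (17.17 to 17.73). So in Double the alveolar type 2 list and most of the 10 genes were lower in the same libraries. Goblet cell markers went the other way, with all 8 measured of 9 rising in E18.5 Nkx and in E18.5 Double alike. Their sum was 8.76 to 9.97 in WT, 13.17 to 14.73 in Nkx and 13.17 to 14.40 in Double, with at most 3 at the lowest value in a WT library. At 6 months 4 of 7 measured rose in Nkx and all 7 in Double, with sums of 11.40 to 13.45 in WT, 13.87 to 14.55 in Nkx and 17.63 to 18.25 in Double, and at most 1 at the lowest value in a WT or Nkx library.

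The other epithelial lists, with no marker at the lowest value, gave calls at both ages. In 6-month Double 5 of 10 alveolar type 1 markers fell and 0 rose (sum 17.09 to 17.83 in WT, 16.35 to 16.86 in Double), and 8 of 9 ciliated cell markers fell and 0 rose (16.08 to 16.49 and 15.26 to 15.75). Of 8 club cell markers 4 rose and 0 fell (19.00 to 20.64 and 20.36 to 21.63), and of 6 general epithelial markers 5 rose and 0 fell (16.43 to 16.50 and 17.07 to 17.54). The median level of the club cell list in Double (14.47 to 14.76) lay within the WT range (14.43 to 15.56). In 6-month Nkx 3 of 8 club cell markers rose (20.68 to 20.75), and no alveolar type 1, ciliated or general epithelial marker passed. At E18.5 the calls against WT were 0 higher and 3 lower for alveolar type 1 markers in Nkx and in Double, 3 higher and 2 lower for club cell markers in Nkx, and 2 higher and 2 lower in Double. Ciliated markers then gave 0 higher and 3 lower and general epithelial markers 2 higher and 0 lower in Double, with no call in Nkx.

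Markers of cells outside the epithelium moved as well. Leukocyte markers (10 of 12 measured at E18.5) summed to 17.05 to 17.17 in WT, 15.81 to 16.62 in Nkx and 14.70 to 16.25 in Double, with 5 falling in Nkx, 9 falling in Double and at most 2 at the lowest value in a Nkx or Double library. At 6 months they summed to 16.96 to 17.85 in WT, 19.05 to 19.27 in Nkx and 16.83 to 18.45 in Double (12 of 12 measured, none at the lowest value). None passed in 6-month Nkx. The Nkx sums lay above those of WT, but the median levels of the list overlapped (7.17 to 7.42 in WT, 6.46 to 8.04 in Nkx). In Double 1 rose and 1 fell. At 6 months endothelial markers (8 of 8 measured, none at the lowest value) summed to 14.58 to 15.86 in WT, 13.98 to 15.01 in Nkx and 11.63 to 12.73 in Double, with 8 falling in Double. Mesenchymal markers (9 of 10 measured, none at the lowest value) summed to 12.92 to 13.76 in WT, 12.31 to 12.86 in Nkx and 9.96 to 11.66 in Double, with 8 falling. At E18.5 only 6 of 8 endothelial and 4 of 10 mesenchymal markers were measured. In Double 0 endothelial markers rose and 2 fell, and 1 mesenchymal marker rose and 2 fell, with no call in Nkx. None of 6 adipocyte markers was listed at either age. The part of these cell types in the fatty acid gene differences was not tested. In such bulk samples fewer cells of a type and less RNA per cell cannot be told apart.

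For 4 of the genes the nearest patterns were found among the 13034 genes measured at both ages, by the root mean square distance of values centred within each age over 22 libraries. For Scd1, whose own values spread by 0.856 around the age mean, these were St3gal1 (0.392), Adora2b (0.394) and Mylk3 (0.395). For Srebf1 (0.504) they were Agpat3 (0.206), Cndp2 (0.214) and Ipo13 (0.222). Fads1 (0.567) was nearest to Spaar (0.200), Atp6v1c2 (0.223) and Sec14l2 (0.224), and Elovl6 (0.891) to Sgms2 (0.384), Emp1 (0.388) and Mpzl2 (0.435).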

How the data were processed

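RNA sequencing libraries of mouse lung epithelial cells were used as deposited, 12 at E18.5 and 10 at 6 months. STAR, limma and the mm9 build are named, per the submitters' processing notes, without versions or roles. The deposited values are log2 expression levels by the authors, 1 table per library. From the values, they follow 1 common distribution within each age, so the libraries were quantile-normalized within an age, and the ages were analysed apart. Differences were fitted with limma 3.58.1 (R 4.3.3), in 1 model per age over all groups, with group as the only term and empirical Bayes moderation with a trend. Benjamini-Hochberg adjustment ran over all genes of an age, with a threshold of 0.05. Read totals were not given, so no counting interval could be made, and the number of distinct low values per library stood in for depth (209 to 284 at E18.5, 128 to 382 at 6 months). Tests on simulated data made from these libraries recovered 33% of genes given a log2 change of 1 and 85% given a log2 change of 2 for Nkx against WT at E18.5 (13750 genes). For Double against WT at 6 months (15958 genes) the shares were 62% and 79%.

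The genes, the wider lists and the marker lists were chosen with earlier results of these data known. The text names all 10 genes in every comparison. Of each wider list it names up to 4 genes per comparison, taken from those past the threshold with the largest log2 fold changes. For Scd1, Srebf1, Fads1 and Elovl6 it gives the 3 genes of nearest pattern, and the same for Scd2 is not reported here. Motifs were matched as exact letters. Alternatives were the replicate number as a block, no trend, a fit of the compared groups alone, sex pattern or depth as a covariate, a filter on mean levels below 5, an offset of 32 on the linear scale, centring on reference genes, and leaving out each library in turn. Same-numbered Nkx and Double libraries at E18.5 deviated together from their group means (correlations over genes of 0.180 to 0.504 in 3 of 3 pairs). The labels give no reason for this pairing, which comes from the data, and a fit with the replicate block and these groups alone was added for that comparison after the data were seen. Genes with no symbol stayed in the fits.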

Additional observations from a re-analysis of the deposited data

Results flagged for a closer look

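In the 6-month Double group of 4 libraries, 2 values stood far from the others. Acly was 13.38 in replicate 1, with the other 3 libraries between 13.88 and 13.95 (gap of 0.878 of the range). Scd2 was 15.15 in replicate 2, with the others between 13.98 and 14.16 (0.847 of the range). Chance flags about 1 in 20 such groups. Fads2 had differences of opposite sign in Nkx against WT, −0.60 at E18.5 (limma, adjusted p = 0.108) and 0.36 at 6 months (adjusted p = 0.369), and neither passed the test. All 3 Nkx libraries were on 1 side of the WT mean at each age, and the difference between the ages was not tested.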

How the results depend on the processing

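Low genes such as Elovl6 and top-ranked genes such as Scd1 are measured coarsely, and read depth is unknown, which limits small differences. Of 1010 values of single genes under alternatives, 914 kept their direction and side of the threshold, 45 lost and 21 gained the call, and 30 turned sign, none of them called. In Double against WT, Scd1 and Fads1 at E18.5, and Acaca, Fasn, Acly, Srebf1, Fads1, Elovl5 and Elovl6 at 6 months, kept their calls under every alternative run.

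The number of the 10 genes called in Nkx against WT at E18.5 was 1, and 0 without the trend, with the pair of groups alone, with the sex covariate or centred on reference genes, and 2 with the replicate block. At 6 months it was 2, and 0 without the trend, 1 with the sex covariate or the replicate block and 3 with the pair of groups alone. Leaving out 1 library gave 0 to 6 and 0 to 1 in these comparisons, 4 to 9 in E18.5 Double against WT, 8 to 9 in 6-month Double against WT, 3 to 7 in 6-month Double against Nkx, and 0 in the others. Apart from E18.5 Nkx and Double, the replicate numbers could not be taken to pair the samples: in each other pair of groups at least 1 same-numbered correlation of deviations was under 0.1, over a range of −0.285 to 0.472 at E18.5 and, for 6-month libraries, −0.302 to 0.128. With the block, 7 and 8 of the 10 genes were called in Double against WT at E18.5 and 6 months.

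Counts over all genes were 1007 and 2008 for Nkx and Double against WT at E18.5, and 419, 5795 and 3460 for Nkx against WT, Double against WT and Double against Nkx at 6 months. With the compared pair alone, the first 2 were 491 and 928, and centred on reference genes 172 and 877. Nkx against WT at 6 months gave 98 without the trend, 131 with the block and 228 with the sex covariate, and Double against WT 3851 with the sex covariate, while Double against Nkx gave 2285 with the block. Double against Nkx at E18.5 gave 1, and 3 with the pair alone, 6 with the offset, 0 centred and 9 with the replicate block and these groups alone, an alternative chosen after seeing the data. NANCI against WT gave 0, and 3 without the trend. Leaving out 1 library gave 466 to 2179, 1182 to 2691, 0 to 1 and 0 to 2 for Nkx against WT, Double against WT, Double against Nkx and NANCI against WT at E18.5. At 6 months it gave 59 to 211, 4445 to 5727 and 2204 to 3492.

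Centring on reference genes moved the median of all genes by −0.13 and −0.38 (Nkx and Double, E18.5) and by −0.21 and −0.15 (6 months). At E18.5, 50.1% of Nkx calls and 48.9% of Double calls were higher than WT, and 38.4% and 20.9% after centring. At 6 months these shares were 57.8% and 50.7%, and 26.9% and 34.3% after centring.

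The values that turned sign were small. In NANCI against WT they were Fasn 0.15 and Elovl5 −0.0070 with the sex covariate, Acly −0.048 and Fads1 0.00021 with the depth covariate, and Fasn 0.019 and Fads2 0.0017 centred on reference genes. Scd2 was −0.078 in E18.5 Nkx against WT and Fads1 −0.17 in 6-month Nkx against WT when centred, and Elovl5 was 0.0040 in E18.5 Double against Nkx with the depth covariate. Leaving out 1 library gave, in NANCI against WT, −0.0048 to 0.069 for Acaca, −0.14 to 0.12 for Acly, −0.21 to 0.073 for Fads1, −0.26 to 0.087 for Fads2, −0.26 to 0.21 for Fasn and −0.76 to 0.049 for Srebf1. It gave −0.028 to 0.14 for Scd2 in E18.5 Nkx against WT, and −0.0083 to 0.14 for Fads1 in 6-month Nkx against WT. In Double against Nkx it gave −0.44 to 0.034 for Acaca, −0.42 to 0.067 for Fads1 and −0.077 to 0.072 for Elovl5 at E18.5, and −0.016 to 0.18 for Elovl5 at 6 months.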
